A study of Mus musculus with 4 samples.

Results

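The C/EBP family of transcription factors was followed in macrophage cultures grown from mouse bone marrow, some aboard a space shuttle and some on the ground under the same conditions. The family was taken as 6 gene symbols, Cebpa, Cebpb, Cebpd, Cebpe, Cebpg and Cebpz, and its members were the probe sets that the platform annotation assigns to one of these symbols and to no other gene. A probe set is a group of short oligonucleotide probes on the array that report together on one transcript. The rule found 8 probe sets of 45037 that were not array controls. They stood for 4 genes of the 18193 named on the array: 1 probe set for Cebpa, 2 for Cebpb, 2 for Cebpd and 3 for Cebpg. Cebpe and Cebpz had no probe set assigned to them alone by this annotation and were not analysed here.

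C/EBP proteins bind DNA as pairs, held together by a leucine zipper that follows a basic DNA-contacting region. Cebpa drives progenitors into the granulocyte and monocyte lineage, Cebpb and Cebpd are induced by cytokines and by microbial products in macrophages, and Cebpe is needed late in neutrophil maturation. Cebpg lacks a transactivating region of its own and acts through its dimer partners. Cebpz shares only part of the name: it is a CCAAT-binding nucleolar protein without a leucine zipper.

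Each of the 2 groups, space flight and ground control, had 2 arrays. Marrow of 21 adult C57BL/6 mice was combined before culture, so all cultures of both groups share the same mice, and the replicates are separate cultures rather than separate animals. Red cells were lysed, and the rest were sealed in glass barrels at 37 °C with recombinant macrophage colony-stimulating factor (M-CSF, 1.5 µg/ml), the factor that turns marrow progenitors into macrophages. The cultures received fresh medium with M-CSF on culture day 6 and were lysed in guanidinium on culture day 15, day 14 of the flight, and each array carried RNA from 2 combined barrels after 2 rounds of amplification.

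All values below are log2 intensities after quantile normalization, which gives the arrays 1 common distribution, and each difference is space flight minus ground control. Levels of different probe sets were not read as relative amounts of transcript, because the brightness of a probe set depends on its own probes. RNA integrity numbers were 3 for every sample per the labels, a sign of degraded RNA. Signal at the 3' end of the Gapdh control transcript was 15.2 times that at the 5' end on space flight array 2, and 3.33 to 4.13 times on the other 3 arrays. For the Actb control transcript this ratio was 3.08 and 4.91 on space flight arrays 1 and 2. It was 2.30 and 2.84 on ground control arrays 1 and 2, so by Actb both flown arrays were higher. The part of RNA quality in the differences below was not tested. Replicates differed across measured genes with an SD of 0.70 in space flight and 0.47 in ground control. Of 10 macrophage markers, 9 were bright enough to be measured, with Lyz2, the macrophage lysozyme gene, between 15.24 and 15.32 and the M-CSF receptor gene Csf1r between 14.87 and 15.28. C1qa, a complement gene, was dim on all 4 arrays, at 4.32 to 6.13, and the Fc receptor gene Fcgr1 was dim in ground control, at 6.01 and 6.13. The number of arrays limits the precision, and the smallest two-sided p that an exact permutation test could reach here is 0.333.

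Of the 4 genes, Cebpb had the largest difference, 1.12 ± 0.21 (SE, n = 2 arrays per group), a 2.18-fold higher level in space flight. Cebpd followed at 0.74 ± 0.30 (SE), a 1.68-fold higher level. Cebpa stood at 0.24 ± 0.33 and Cebpg at −0.21 ± 0.27 (SE). In limma's test across 11141 measured genes, those bright enough to reach the median probe set at 6.40, 0 of the 4 passed an adjusted p of 0.05, and 0.0628% of measured genes did. Before adjustment, 2 of the 4, Cebpb and Cebpd, had a p under 0.05, both higher, where 14.2% of measured genes reached that level. The groups did not overlap for the same 2 genes, and 45.5% of measured genes were separated in one direction or the other. The median difference of the 4 genes was 0.49, beside 0.02 over all measured genes.

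**Figure D1:**
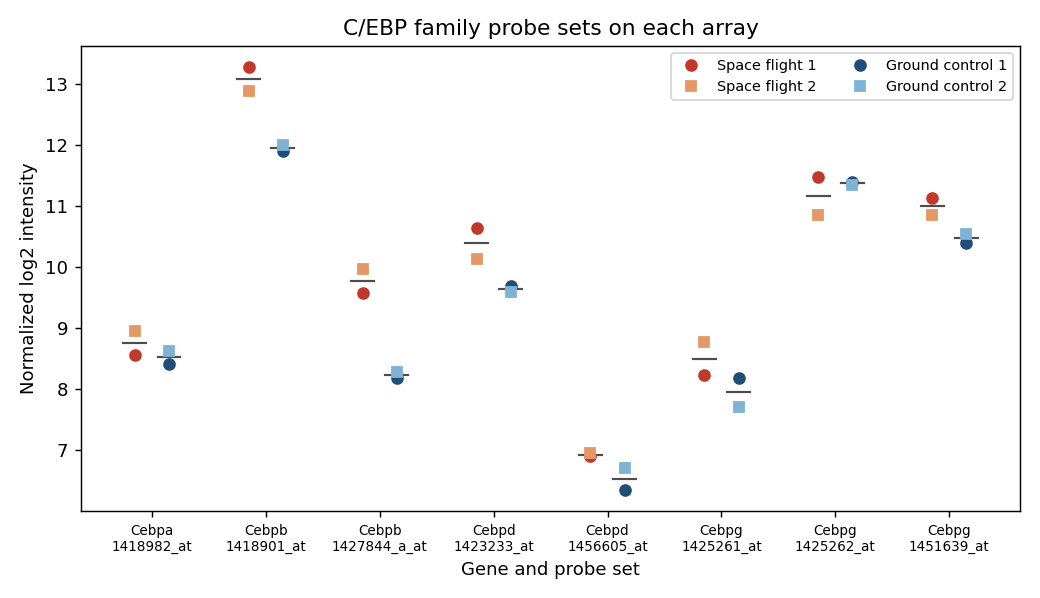
Normalized log2 intensity (vertical axis) of the 8 C/EBP family probe sets (horizontal axis) on each of the 4 arrays, with short lines at the mean of each pair. Both space flight points lie above both ground control points for Cebpb and Cebpd on each of their probe sets, while the groups overlap for Cebpa and for the Cebpg probe set 1425262_at.

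Cebpb, also known as NF-IL6, is the member that macrophages use to switch on cytokine and acute phase genes. Its brighter probe set, 1418901_at, read 13.27 and 12.88 on space flight arrays 1 and 2, and 11.90 and 12.00 on ground control arrays 1 and 2. As deposited, before normalization, the intensities were 9449 and 7904 in space flight and 3836 and 4158 in ground control. Both flown cultures were thus above both ground cultures, and the gap between the groups exceeded the spread within either. The group means were 13.07 ± 0.28 and 11.95 ± 0.07 (SD, n = 2), and the 95% interval of the difference ran from 0.66 to 1.59 (limma adjusted p = 0.0859). By p-value Cebpb ranked 38th of 11141 measured genes.

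The second Cebpb probe set, 1427844_a_at, is of the maker's class that matches several transcripts of the same gene. It read 9.58 and 9.97 in space flight and 8.19 and 8.28 in ground control. Here too the groups were apart, but space flight array 2 was the higher of the flown pair, whereas array 1 was the higher on the first probe set. The difference was 1.54 ± 0.31 (SE), a 2.91-fold higher level, with a 95% interval of 0.83 to 2.26 (limma adjusted p = 0.316 in the fit over all 45037 probe sets). In that wider fit 1418901_at had an adjusted p of 0.257. No probe set passed there: 0 of 8 members and 0 of all probe sets, with 3 of 8 members at an unadjusted p under 0.05 against 8.74% of all probe sets. Those 3 were both Cebpb probe sets and the brighter one of Cebpd. All 8 members reached the median probe set at 6.40, whereas all probe sets include dimmer ones. Members of the same gene share its transcript, so the 8 probe sets are not independent of each other.

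The call for Cebpb turned on which arrays entered. Without space flight array 1 its difference was 0.93 (limma adjusted p = 0.0144) and without space flight array 2 it was 1.32 (limma adjusted p = 0.000902), while without ground control array 1 or 2 it was 1.07 (adjusted p = 0.227) or 1.17 (adjusted p = 0.0935). In these fits the spread came from the complete group alone, and its moderated degrees of freedom were 28.2 to 33.1, where the fit of all 4 arrays had 10.4.

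The stretch just upstream of Cebpb is shown because this member led the family, with that of Cebpg, whose probe sets disagreed, for comparison. Both are the 250 bases before the start of the RefSeq gene in build GRCm38.p6, read 5′ to 3′ on the strand of the gene: chr2:167688665-167688914, plus strand, for Cebpb and chr7:35056567-35056816, minus strand, for Cebpg. Capitals mark matches on either strand to TGACG, the core of cyclic AMP response elements, to the GC box GGGCGG, or to CCAAT.
Cebpb: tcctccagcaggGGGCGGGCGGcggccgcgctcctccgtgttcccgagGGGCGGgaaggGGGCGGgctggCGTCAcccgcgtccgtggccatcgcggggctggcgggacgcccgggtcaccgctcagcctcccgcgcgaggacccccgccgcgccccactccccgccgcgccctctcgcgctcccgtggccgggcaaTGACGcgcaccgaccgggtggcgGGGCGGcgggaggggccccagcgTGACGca
Cebpg: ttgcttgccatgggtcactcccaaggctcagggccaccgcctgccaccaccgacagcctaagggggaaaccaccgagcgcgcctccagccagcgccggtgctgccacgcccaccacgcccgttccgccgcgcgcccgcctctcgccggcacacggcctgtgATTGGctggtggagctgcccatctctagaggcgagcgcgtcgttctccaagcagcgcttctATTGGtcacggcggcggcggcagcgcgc

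The Cebpb window held TGACG, or its reverse complement CGTCA, at 3 places, 180 to 176, 53 to 49 and 7 to 3 bases before the start. Of 32851 RefSeq windows of the same length, 17.8% held at least 1 such match and 0.688% held at least 3. The same window held GGGCGG at 5 places, 2 of them overlapping, where 32.7% of windows held at least 1 and 1.93% at least 5. Its GC content was 81.6%, against 70.8% for Cebpg. The Cebpg window held CCAAT, read on the opposite strand as ATTGG, at 2 places, where 33.8% of windows held at least 1 and 10.1% at least 2. None of 3 other patterns was found in either window: TTNNGCAA, or TTGCNNAA on the other strand, a core of C/EBP sites present in 9.56% of windows; TTCCNGGAA, a STAT-type site in 0.913%; and the E box CACGTG in 6.02%. The Cebpa window, also 250 bases long, held none of the 6 patterns. These matches are descriptions of the letters and were not tested as binding sites.

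Cebpd encodes C/EBP delta, an early cytokine-induced member that forms dimers with C/EBP beta. Its brighter probe set, 1423233_at, read 10.63 and 10.13 in space flight and 9.69 and 9.59 in ground control. Both flown cultures were above both ground cultures, with space flight array 1 the higher of the pair by a margin close to the gap that separated array 2 from the ground cultures. The difference of 0.74 had a 95% interval of 0.09 to 1.40 (limma adjusted p = 0.294), and Cebpd ranked 1138th of the measured genes by p-value. Its dimmer probe set, 1456605_at, read 6.91 and 6.95 in space flight and 6.35 and 6.71 in ground control. That probe set lies near the dim limit of 6.40, and its difference of 0.40 ± 0.58 (SE) had a 95% interval of −0.92 to 1.72. Without space flight array 2 the difference of Cebpd on the brighter probe set was 0.99 (limma adjusted p = 0.0497), and without array 1 it was 0.49 (adjusted p = 0.339).

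Cebpa encodes C/EBP alpha, the member that commits progenitors to the myeloid lineage. Its only probe set, 1418982_at, read 8.56 and 8.95 in space flight and 8.42 and 8.62 in ground control. Space flight array 1 lay between the 2 ground control arrays, so the groups overlapped. The difference of 0.24 had a 95% interval of −0.50 to 0.98 (limma adjusted p = 0.789), which leaves room for a difference in either direction.

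Cebpg encodes C/EBP gamma, a short partner of the other members and of ATF4. Its 3 probe sets carry the same accession in the annotation, yet did not behave alike. The brightest, 1425262_at, read 11.47 and 10.86 in space flight and 11.40 and 11.35 in ground control. Space flight array 1 was the highest of the 4 arrays and array 2 the lowest, so the difference of −0.21 (95% interval −0.81 to 0.39) rested on array 2 and became 0.10 without it. That array is the one with the Gapdh ratio of 15.2, and the part of RNA quality in this value was not tested. Probe set 1451639_at read 11.13 and 10.85 in space flight and 10.40 and 10.54 in ground control, with both flown cultures above both ground cultures and a difference of 0.52 ± 0.23 (SE; 95% interval −0.0048 to 1.05). The dimmest, 1425261_at, read 8.23 and 8.77 in space flight and 8.18 and 7.71 in ground control, with a narrow gap between the groups and a difference of 0.55 ± 0.40 (SE). With the mean of the 3 probe sets in place of the brightest, the difference of Cebpg turned to 0.29 (limma adjusted p = 0.643). Cebpa and Cebpg are neighbours on mouse chromosome 7, with no protein-coding gene between them in the RefSeq table.

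**Figure D2:**
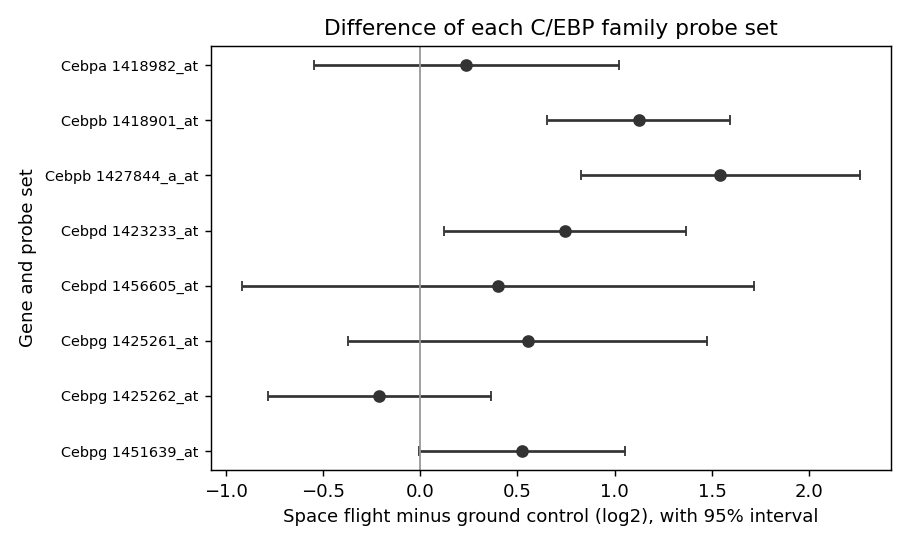
Difference in log2 intensity, space flight minus ground control (horizontal axis), for each C/EBP family probe set (vertical axis), with bars for the 95% interval from limma's fit over 45037 probe sets. The intervals of both Cebpb probe sets and of 1423233_at of Cebpd lie above 0, and 1425262_at of Cebpg is the one probe set of 8 with a difference below 0.

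Counting probe sets, 7 of the 8 had a difference above 0. Counting genes, 3 of the 4 did, where 5704 of 11141 measured genes did. For 6 of the 8 probe sets both flown cultures were above both ground cultures, against 19.1% of all probe sets and 23.0% of measured genes. The other 2 overlapped, and 0 had both flown cultures below, against 19.4% and 22.5%. All 8 lay above the dim limit, whereas all probe sets include dim ones. They stand for only 4 genes, so they are not independent of each other. With each array shifted to 1 median in place of quantile normalization, the median of all measured genes moved to −0.16. Relative to that median, Cebpb then stood at 1.07, Cebpd at 0.67, Cebpa at 0.18 and Cebpg at −0.28.

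The measured genes whose pattern over the 4 arrays was nearest to that of each member were found by the Euclidean distance between values centred on each gene's own mean. Nearest to Cebpb was Nfil3, a leucine zipper repressor, at a distance of 0.059, with 10.59 and 10.19 in space flight and 9.15 and 9.32 in ground control. Next were Slc35a2 at 0.070 and B3gnt8 at 0.091. For Cebpd these were Asb8 (0.0076), Fbxl5 (0.019) and Midn (0.056), for Cebpa they were Nek7 (0.027), Tpx2 (0.036) and Ndufb11 (0.039), and for Cebpg they were Prkdc (0.036), Snx3 (0.049) and Cd274 (0.052). A pattern over 4 arrays is a coarse measure, and these distances are descriptions.

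The genes around the family were taken from 11 lists of partners, regulators, upstream signals and targets, holding 118 different genes; 94 were measured. Limma's test over all measured genes passed 2 of the 94, both higher, the neutrophil granule genes Camp and Ngp, where 0.0449% of measured genes passed upward and 0.0180% downward. Before adjustment 28 were higher and 7 lower at p under 0.05, against 6.88% and 7.32% of all measured genes. The groups were apart for 35 genes upward and 18 downward, against 23.0% and 22.5% of measured genes. The lists were chosen with earlier results of these data known, so these counts are descriptions and do not test the lists.

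Among leucine zipper factors that pair with C/EBP proteins, 0 of 11 measured genes passed limma's test. At an unadjusted p under 0.05, 5 were higher and 0 lower, against 6.88% and 7.32% of measured genes. Differences were above 0 for 6 of the 11 and below 0 for 5. The groups were apart upward for 6 and downward for 2, against 23.0% and 22.5% of measured genes. The median difference of 0.74 was that of Atf4, the smallest of those above 0. Ddit3, or CHOP, is the stress-induced family relative that pairs with C/EBP beta and blocks its binding to classic sites. It read 12.39 and 12.40 in space flight and 11.22 and 11.47 in ground control, a difference of 1.05 ± 0.22 (SE; limma adjusted p = 0.0910), though a second measured probe set gave 0.06. Atf4, the main effector of the integrated stress response, read 14.26 and 14.52 against 13.67 and 13.62, a difference of 0.74 ± 0.15 (SE). Atf5, a close relative of Atf4, read 13.18 and 13.11 against 12.34 and 12.23, a difference of 0.86 ± 0.19 (SE). All 3 were separated upward, as were Nfil3 at 1.16 ± 0.30 (SE) and Jun, a subunit of AP-1, at 1.15 ± 0.40, with another probe set at 0.15. Fos, the partner of Jun in AP-1, stood at −0.57 ± 0.27 and Atf3 at −0.12 ± 0.19 (SE). With 1 array left out the median of this list ran from 0.53 to 0.69.

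Of regulators that act on C/EBP proteins, 0 of 7 measured genes passed, and the median was −0.04. At an unadjusted p under 0.05, 1 was higher and 0 lower, against 6.88% and 7.32% of measured genes. Trib3, a pseudokinase gene induced by Atf4 and Ddit3, was that gene, at 11.99 and 11.94 in space flight and 10.92 and 10.92 in ground control, a difference of 1.04 ± 0.23 (SE; limma adjusted p = 0.103). Celf1, which steers the choice of start codon in Cebpb mRNA, stood at 0.29 ± 0.20, and the cap-binding factor gene Eif4e at −0.33 ± 0.37 (SE), with other probe sets of each pointing the other way. Trib1 and Trib2, whose proteins send C/EBP alpha for degradation, were not tested, because their means over the 4 arrays lay below the dim limit. Trib2 was under the limit on every array, whereas Trib1 read 7.58 and 6.98 in space flight, above the limit, and 5.52 and 5.50 in ground control, below it.

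Upstream signals that induce Cebpb and Cebpd pointed both ways, with 5 differences above 0 and 6 below. Of the 11 measured, 0 passed limma's test, and the median was −0.23. At an unadjusted p under 0.05, 0 were higher and 1 lower, against 6.88% and 7.32% of measured genes. The lower one was Il6st, the gp130 chain shared by receptors of the interleukin-6 family, with 9.24 and 10.32 in space flight and 11.04 and 11.14 in ground control, a difference of −1.31 ± 0.35 (SE; limma adjusted p = 0.140). The tumour necrosis factor receptor gene Tnfrsf1a stood at −0.30 ± 0.20 and the cytokine gene Osm at 0.54 ± 0.41 (SE), with overlapping groups for Osm. Il6 itself lay below the dim limit on all 4 arrays. Lineage factors that work beside C/EBP proteins, 9 measured, had a median of −0.24, and limma's test passed 0 of them, none of which had an unadjusted p under 0.05. Klf4, a monocyte factor, stood at 0.47 ± 0.22, Irf8, which favours monocytes over granulocytes, at −0.60 ± 0.29, and Spi1, the PU.1 gene, at 0.44 ± 0.25 (SE), and other probe sets of Klf4 and Irf8 pointed the other way. This median turned to 0.21 without space flight array 1.

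The lists of granulocyte targets had the highest medians of the 11. In the list of secondary granule genes that need Cebpe, 2 of 10 measured genes rose and 0 fell in limma's test. The shares of all measured genes were 0.0449% and 0.0180%. The median difference of the list was 1.40. The groups were apart for all 10, 8 upward and 2 downward, against 45.5% of measured genes in either direction. Camp, an antimicrobial peptide gene, read 13.08 and 13.87 in space flight and 11.40 and 11.62 in ground control, and rose by 1.97 ± 0.26 (SE; limma adjusted p = 0.0347). Ngp, which encodes a neutrophil granule protein, read 13.37 and 13.76 against 11.96 and 12.14, and rose by 1.51 ± 0.20 (SE; limma adjusted p = 0.0347). Ltf, the lactoferrin gene, read 11.38 and 11.58 against 9.96 and 9.65, a difference of 1.68 ± 0.27 (SE; adjusted p = 0.0568). The 2 that were lower in space flight were Cybb, the catalytic subunit of the phagocyte oxidase, at −1.28 ± 0.23, with probe sets that disagreed, and Mmp8, the neutrophil collagenase, at −0.64 ± 0.22 (SE). The median of this list ran from 1.18 to 1.59 with 1 array left out. Cebpe, after which this list is named, was not analysed here.

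Granulocyte targets of Cebpa had a median of 1.00 over 7 measured genes, of which 0 passed limma's test. At an unadjusted p under 0.05, 4 of the 7 were higher, against 6.88% of all measured genes. The azurophil granule genes led: Prtn3, the proteinase 3 gene, read 9.40 and 9.96 in space flight and 8.09 and 8.01 in ground control, a difference of 1.63 ± 0.33 (SE; limma adjusted p = 0.0910). Mpo, the myeloperoxidase gene, stood at 1.42 ± 0.36 and the neutrophil elastase gene Elane at 1.72 ± 0.49 (SE), both with the groups apart. Of the receptor genes that Cebpa also activates, Csf3r stood at 0.05 ± 0.40 with overlapping groups, and Il6ra at −0.43 ± 0.33 (SE) with both flown cultures below both ground cultures. The median ran from 0.64 to 1.28 with 1 array left out.

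Inflammatory and acute phase targets of Cebpb and Cebpd had a median of 0.37 over 11 measured genes, 10 of them above 0. Of the 11, 0 passed limma's test and 5 were higher at an unadjusted p under 0.05, against 6.88% of measured genes. Saa3, the macrophage serum amyloid gene, read 13.30 and 13.52 in space flight and 11.80 and 12.34 in ground control, a difference of 1.34 ± 0.22 (SE; limma adjusted p = 0.0568). Lcn2, the siderophore-binding lipocalin gene, which is also in the list of secondary granule genes, read 11.90 and 12.51 against 9.64 and 10.64, a difference of 2.07 ± 0.35 (SE; adjusted p = 0.0568). The neutrophil chemokine gene Cxcl2 stood at 0.97 ± 0.25 (SE). Among the other cytokine and chemokine genes of the list, Cxcl1 stood at 0.92 ± 0.35 (SE) with the groups apart, and Il1b at 0.37 ± 0.48, Tnf at 0.18 ± 0.33 and Ccl3 at 0.04 ± 0.22 with overlapping groups. Il6, Nos2, Il12b, Csf3 and Ccl2 had means over the 4 arrays below the dim limit and were not tested. Of these, Il12b read 6.58 and 6.39 in space flight and 4.14 and 5.26 in ground control. With 1 array left out the median of these targets ran from 0.31 to 0.80.

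Alternative activation targets of Cebpb pointed both ways, with a median of −0.19 over 6 measured genes and 0 past limma's test. At an unadjusted p under 0.05, 1 was higher and 1 lower, against 6.88% and 7.32% of measured genes. Chil3, a chitinase-like gene shared with the secondary granule list, stood at 1.28 ± 0.23, and the mannose receptor gene Mrc1 at −1.47 ± 0.43 (SE). Arg1, a well-studied Cebpb target in macrophages, read 9.27 and 11.21 in space flight and 11.04 and 11.46 in ground control, with space flight array 1 far below the other 3 and a difference of −1.01 ± 0.50 (SE).

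Lipid and adipocyte targets had a median of −0.27 over 8 measured genes, with 0 past limma's test. At an unadjusted p under 0.05, 2 were higher and 3 lower, against 6.88% and 7.32% of measured genes. Pparg, the nuclear receptor that C/EBP factors induce in fat cells, read 7.10 and 6.38 in space flight and 8.52 and 8.54 in ground control, a difference of −1.79 ± 0.42 (SE; limma adjusted p = 0.114). The desaturase gene Scd2 stood at −0.90 ± 0.21 and the fatty acid binding protein gene Fabp4 at 1.03 ± 0.29 (SE), with probe sets of both disagreeing.

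Amino acid response genes, whose regulatory elements bind dimers of C/EBP proteins with Atf4 or Ddit3, had a median of 0.22 over 9 measured genes. Of the 9, 0 passed limma's test and 3 were higher at an unadjusted p under 0.05, against 6.88% of measured genes. Ppp1r15a, the phosphatase subunit gene that ends the stress response, read 11.89 and 11.57 in space flight and 10.61 and 10.12 in ground control, a difference of 1.36 ± 0.27 (SE; limma adjusted p = 0.0910). Trib3 is also in this list, and the serine synthesis gene Phgdh stood at 0.78 ± 0.25 (SE). Asns, the asparagine synthetase gene and a standard reporter of amino acid shortage, stood at 0.11 ± 0.22 and Chac1 at 0.22 ± 0.34 (SE), with overlapping groups for both. Nucleolar genes that assemble ribosomes alongside Cebpz had a median of 0.20 over 12 measured genes, and of −0.16 without space flight array 1. Of the 12, 0 passed limma's test and 2 were higher at an unadjusted p under 0.05, against the same 6.88%. Nop56, a box C/D small nucleolar particle gene, stood at 1.29 ± 0.30, Nip7 at 0.70 ± 0.24 and Mak16 at −0.34 ± 0.30 (SE). The median of the regulators ran from −0.09 to 0.20 with 1 array left out, that of the amino acid response genes from 0.21 to 0.44, that of upstream signals from −0.19 to −0.11, that of alternative activation targets from −0.38 to −0.09 and that of lipid targets from −0.29 to −0.15.

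**Figure D3:**
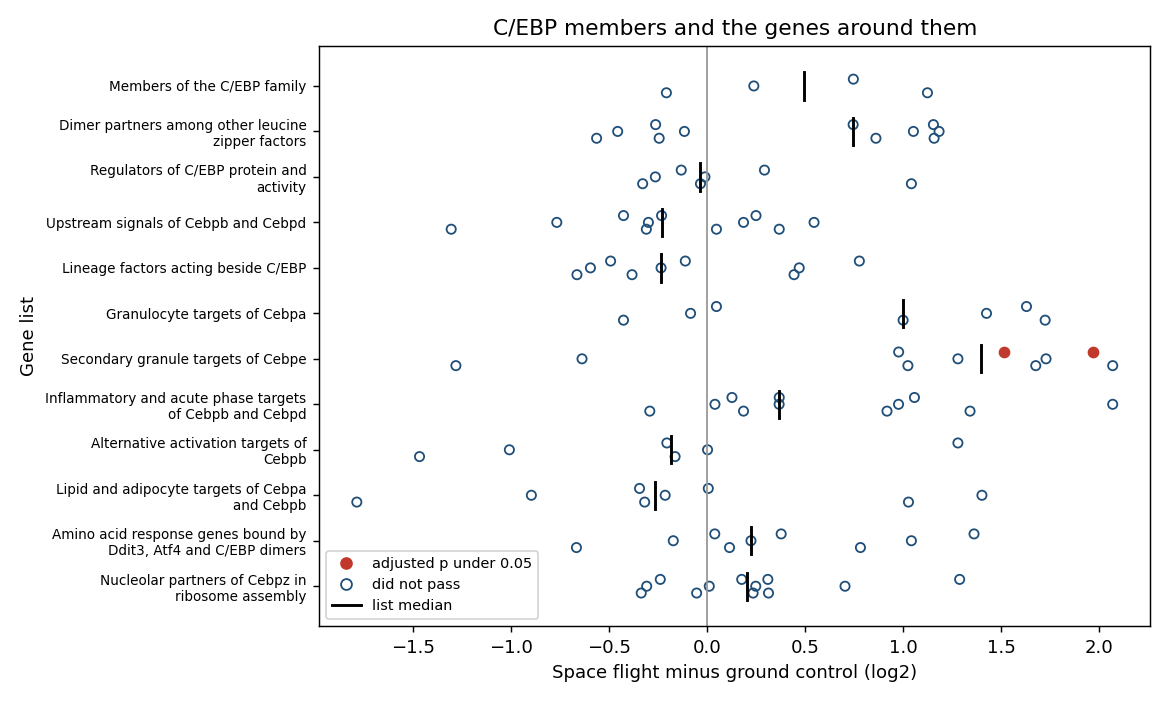
Difference in log2 intensity, space flight minus ground control (horizontal axis), of each measured gene in the C/EBP family and in 11 lists of genes around it (rows), with a black line at the median of each list. Filled points passed limma's test, and these are Camp and Ngp; the medians run from −0.27 for lipid targets to 1.40 for secondary granule genes.

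Marker lists of other cell types were summed on each array. Such a sum gives most weight to the genes with the brightest probe sets, so it was compared between arrays and not between lists. The sum of normalized intensity over 12 of 13 neutrophil and granulocyte markers was 86171 and 114170 on space flight arrays 1 and 2, and 49659 and 52074 on ground control arrays 1 and 2. Of the 11 measured, 2 passed limma's test, Camp and Ngp. The groups were apart upward for 9, among them the calprotectin genes S100a8 (0.79 ± 0.12, SE) and S100a9 (1.36 ± 0.27). Mmp8 was separated downward, at −0.64 ± 0.22, and Csf3r overlapped, at 0.05 ± 0.40 (SE). Cxcr2 had a mean below the dim limit, with 6.38 and 4.95 in space flight and 6.05 and 6.91 in ground control. Of these 11 genes 9 also stand in the target lists above, so this is largely not a separate measurement; S100a8 and S100a9 are the 2 that do not. Without S100a8, the brightest, the sums were 47178 and 69839 against 26319 and 27229. Over 7 of 10 erythroid markers the sum was 6437 and 12138 in space flight and 1605 and 3252 in ground control, with 5 of 6 measured genes separated upward. Slc4a1, the red cell anion exchanger gene, made up most of that sum, and the rest came to 957 and 1455 against 561 and 510. The sum of macrophage markers went the other way, at 114028 and 106187 against 130388 and 133247 over 10 of 10 genes. Of its 9 measured genes 6 were separated downward, while 3 had a difference above 0. Of these 3, Fcgr1 was separated upward, at 6.66 and 7.51 in space flight and 6.01 and 6.13 in ground control. C1qa, dim on all 4 arrays, read 5.86 and 6.13 in space flight and 4.32 and 4.70 in ground control. Of all measured genes, 23.0% were separated upward and 22.5% downward. The part of these cell types in the values of Cebpb, Cebpd and the target lists was not tested, and in bulk RNA more cells of a type cannot be told apart from more RNA per cell.

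**Figure D4:**
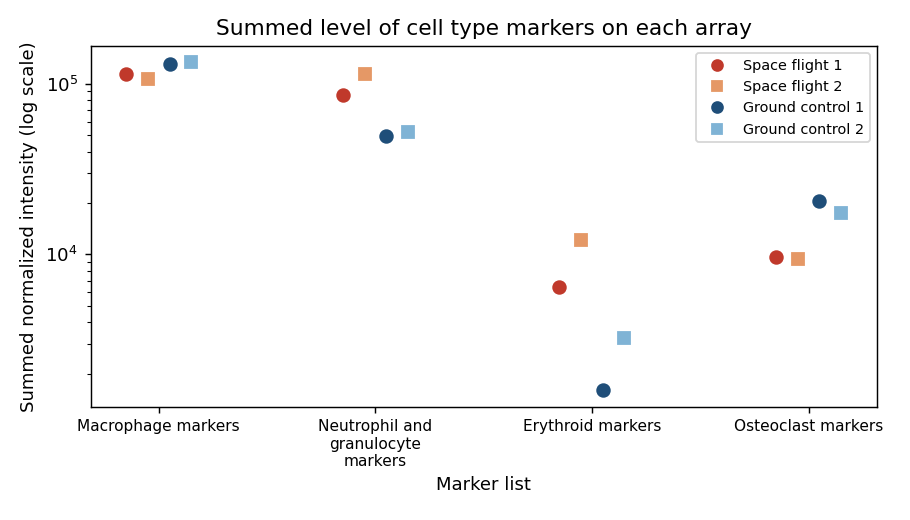
Sum of normalized linear intensity (vertical axis, log scale) over the markers of 4 cell types (horizontal axis) on each of the 4 arrays. Neutrophil sums of 86171 and 114170 in space flight lie above 49659 and 52074 in ground control, as do erythroid sums, while macrophage and osteoclast sums lie below.

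**Figure D5:**
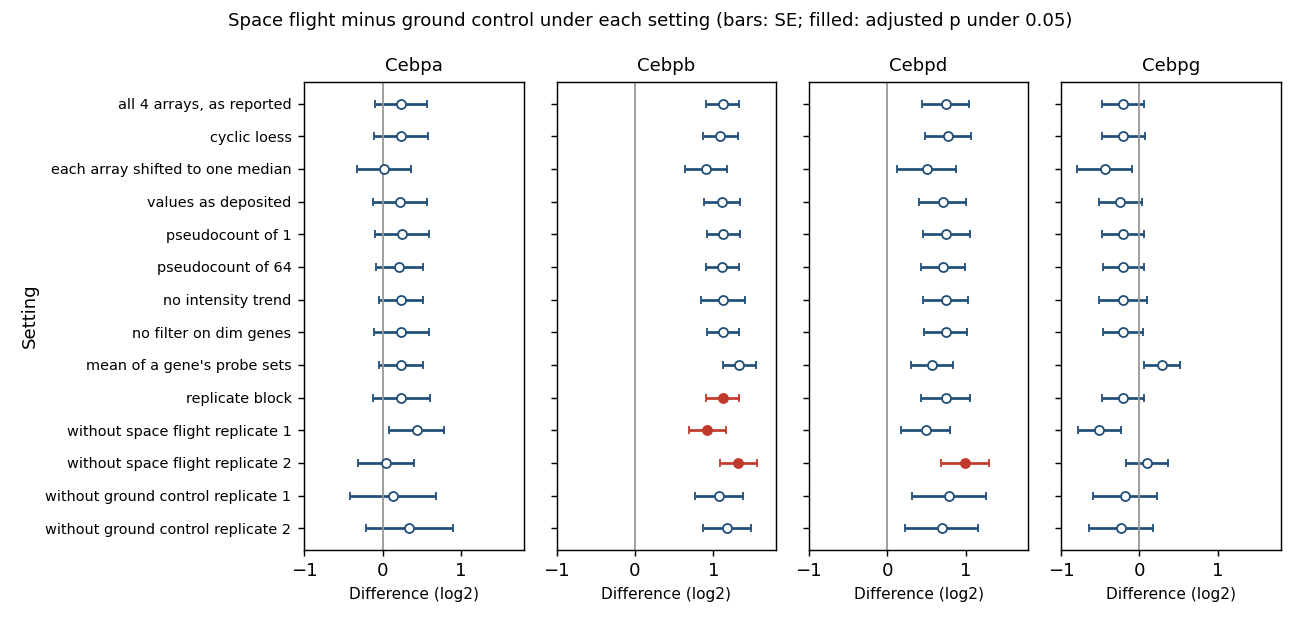
Difference in log2 intensity, space flight minus ground control (horizontal axis), of Cebpa, Cebpb, Cebpd and Cebpg under each processing setting (rows), with bars for the SE and filled points where limma's adjusted p was under 0.05. Cebpb stays between 0.91 and 1.33 in all settings, and Cebpg lies on both sides of 0.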

How the data were processed

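The authors deposited linear intensities, 1 for each probe set on each array, made with GCOS per the submitters' processing notes; the GCOS version, the summarising algorithm and a genome build were not given in the sources used here. All 4 arrays shared a trimmed mean (2% off each end) of 500.004. Values were taken as log2(value + 16) and quantile normalized without 64 control probe sets, since array medians differed by up to 0.385. Each gene was represented by its brightest probe set with 1 symbol, and 11141 of 18193 genes with a mean of at least 6.40 were tested in limma 3.58.1 (R 4.3.3; linear models with moderated variances that follow an intensity trend, two-sided, Benjamini-Hochberg adjustment, threshold 0.05). A second fit took all 45037 probe sets. Folds are on the log2(value + 16) scale and understate changes of dim genes. The procedure was run on simulated normal values with the fit's own variances and planted changes. Such values do not carry the RNA quality of these arrays, so that run does not check the calls. Spread between animals does not enter the p-values.

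The members and the gene lists were chosen with earlier results of these data known. From each list of genes around the family, those past the threshold and the 3 with the largest moderated statistic were named, from each cell type list the 2 brightest, and for each member the 3 genes nearest in pattern; Nfil3, Jun, Fos, Atf3, Trib1, Il12b, Cxcl1, Il1b, C1qa, Fcgr1, Ppbp, Itga2b, Oscar, Cybb, Mmp8, Lcn2, Csf3r, Il6ra, Tnf, Ccl3, Asns, Chac1 and Acp5 were also named after their values were seen, where that rule did not name them. Upstream sequence came from RefSeq windows in GRCm38.p6, found for 3 of the 6 symbols. Alternatives were 3 other array scalings, pseudocounts of 1 and 64, no intensity trend, no filter on dim genes, probe set means, a replicate block and leaving out each array. Medians of lists with an array left out were added after the data were seen.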

Additional observations from a re-analysis of the deposited data

How the results depend on the processing

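Cebpb kept its direction in all 13 alternatives, with a difference of 0.91 to 1.33, and Cebpd in all 13, at 0.49 to 0.99, but both calls moved. Cebpb passed the threshold with the replicate block (1.12, limma adjusted p = 0.00256). The SE hardly changed there, at 0.212 against 0.211, while the moderated degrees of freedom were 28.3 against 10.4 in the reported fit. With 1 array left out the difference of Cebpb ran from 0.93 to 1.32, that of Cebpd from 0.49 to 0.99, and that of Cebpg from −0.51 to 0.10. Cebpa stayed above 0 in all 13, at 0.017 to 0.43, and never passed. Cebpg reversed to 0.29 with the mean of its probe sets and to 0.0955 without space flight array 2. The cause was not tested.

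The count of genes called was less stable than the differences. With 5 higher and 2 lower as reported, there were 16 and 5 with cyclic loess, 12 and 4 with values as deposited, 6 lower with a pseudocount of 64, and 0 and 0 with each array shifted to one median, with no intensity trend, with no filter on dim genes and with the mean of a gene's probe sets. Leaving out 1 array gave 6 to 470 higher and 1 to 610 lower, and the replicate block gave 220 and 213. Deviations of same-numbered arrays from their group means correlated at 0.057 across genes, so the numbers were not taken to pair the cultures. Low signal limits the dimmer probe set of Cebpd, which lies near the dim limit.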

Other observations

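Markers of osteoclasts, the bone-resorbing cells, summed to 9703 and 9433 on the space flight arrays over 8 of 8 genes. On the ground control arrays the sums were 20459 and 17407. The proton pump subunit gene Atp6v0d2 stood at −1.15 ± 0.22 and the cathepsin K gene Ctsk at −1.02 ± 0.20 (SE), with the groups apart for both. Of 5 measured markers 0 passed limma's test and 2 were lower at an unadjusted p under 0.05, against 7.32% of measured genes. Ctsk and Atp6v0d2 are also expressed by macrophages, and Acp5, a further osteoclast marker, stood at 0.73 ± 0.34 in the other direction; Calcr, Ocstamp and Oscar had means below the dim limit, though Oscar read 6.79 and 6.55 in ground control, and 6.14 and 4.55 in space flight. Ctsk made up most of the sum, and the rest came to 3643 and 3530 against 6208 and 7098.

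Megakaryocyte and platelet markers had a median of −0.04 over 5 measured genes, with Pf4 at −0.04 ± 0.19 and Vwf at −0.29 ± 0.25 (SE), while the platelet chemokine gene Ppbp at 1.27 ± 0.41 and the integrin gene Itga2b at 1.28 ± 0.47 (SE) had both flown cultures above both ground cultures. Of lymphoid, dendritic, mast cell, stromal and endothelial markers few were bright enough to be measured: 2 of 8 for B cells, with Cd79a at 0.84 ± 0.50 and Vpreb1 at 0.32 ± 0.74, 1 of 8 for T and NK cells, with Cd8a at −0.92 ± 0.47, and 1 of 8 for dendritic cells, with Itgax at −0.76 ± 0.39. For mast cells, basophils and eosinophils it was 2 of 8, with Mcpt8 at 1.34 ± 0.45 and Siglecf at −1.28 ± 0.50, and for endothelium 1 of 6, with Kdr at −0.99 ± 0.63. Stromal markers were measured for 5 of 9 genes, with Pdgfra at −1.55 ± 0.40 and Pdgfrb at −0.34 ± 0.49 (SE). None of these genes passed limma's test. Among the 17 measured in these 7 lists, 3 were higher and 2 lower at an unadjusted p under 0.05. All measured genes gave 6.88% and 7.32%. Slc4a1 stood at 2.17 ± 0.43, with its other probe set at 0.88, and the haem synthesis gene Alas2 at 1.23 ± 0.38 (SE), the brightest erythroid markers.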
